A study of Mus musculus with 59 samples.

Results

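Brown adipose tissue (BAT) of hypothyroid mice was compared 6 h after a single injection of thyroid hormone (TH) with BAT of hypothyroid mice that had received no TH. Members were taken by label, as the 4 wild-type mice collected 6 h after TH (B12, B13, B15 and B17) and the 4 wild-type mice on propylthiouracil (PTU) alone (B2, B3, B4 and B5), 8 of the 59 samples of the series. All 8 were male C57BL/6J mice of 8 to 12 weeks, and PTU, a drug that blocks TH synthesis and was mixed into the food, was given to the controls as well as to the treated mice. The injection went into the peritoneum and combined T3, the form that binds the receptors, with its precursor T4. RNA of whole BAT was sequenced as 1 library per mouse, with 10014004 to 14615534 counts assigned to genes. Whether the controls were injected with vehicle, and at which hour of the day each group was collected, is not given in the sources used here. Hours after TH and hour of the day therefore cannot be told apart in any comparison that follows.

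TH acts in the nucleus through receptors encoded by Thra and Thrb, which sit on DNA with retinoid X receptors and exchange corepressors for coactivators when T3 binds. BAT burns lipid and glucose to make heat through uncoupling protein 1 (Ucp1) in the inner mitochondrial membrane, under the control of noradrenaline, and the deiodinase encoded by Dio2 turns T4 into T3 inside the brown adipocyte. The circadian clock is a loop in which ARNTL (BMAL1) pairs with CLOCK or NPAS2 to activate the Per and Cry genes, the Nr1d genes and the PAR bZIP factors, whose products close the loop. Because clock transcripts swing over the day in adipose tissue, the clock genes are described apart from the other genes.

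Of the 55341 genes in the count table, 13003 had a mean normalized count above 10 over the 20 wild-type mice of the time course and were tested. At 6 h, 1579 genes (12.1% of those tested) were higher and 1417 (10.9%) were lower than in the controls, so that 23% were called at an adjusted p under 0.05. The median log2 fold change was 0.67 among the genes called higher and -0.65 among those called lower, and -0.004 over all tested genes. A change of at least 2-fold was seen for 370 higher and 298 lower genes. Protein-coding genes made up most calls, with 1429 higher and 1305 lower of 11232 tested (24.3%), and 21 higher and 14 lower were among 192 long intergenic RNAs (18.2%). Normalized counts of the 4 treated mice did not overlap those of the 4 controls for 26% of the tested genes and 82.8% of those called.

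**Figure D1:**
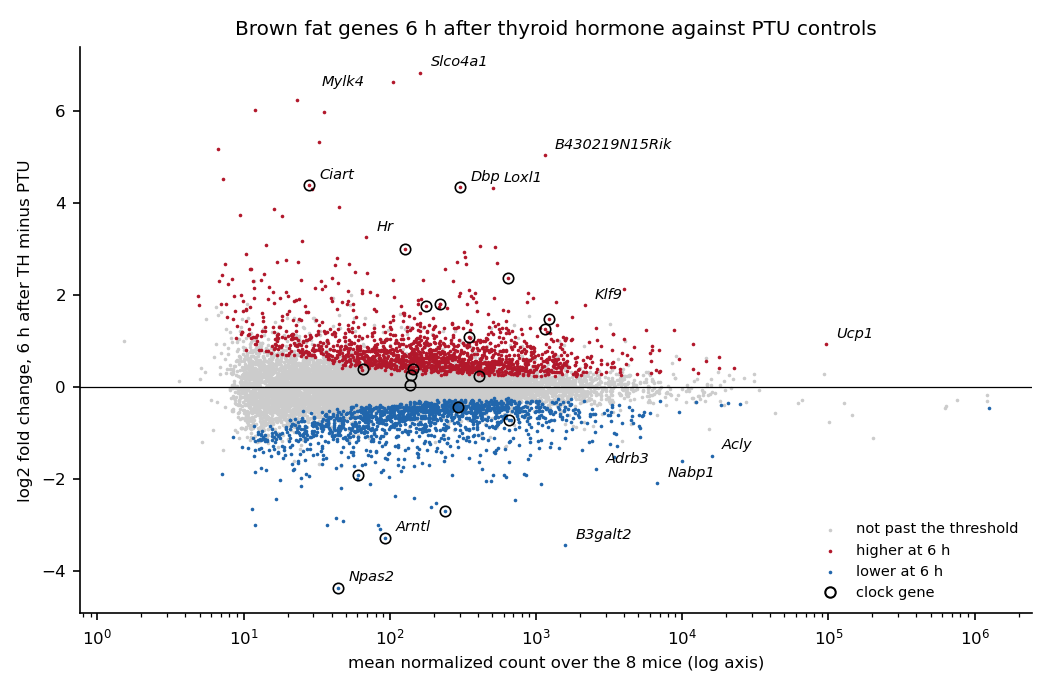
Each point is a tested gene, with its mean normalized count over the 8 mice on a log axis (x) and its log2 fold change 6 h after TH minus PTU (y); red and blue mark the 1579 higher and 1417 lower genes, grey the genes not past the threshold, and open circles 20 of the clock genes. Of the genes marked by name, Slco4a1 and Mylk4 stand highest, at 6.84 and 6.64, and Npas2 lowest, at -4.36.

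The share of counts on mitochondrial transcripts was 51.7% ± 3.44 in the controls and 46.7% ± 2.04 at 6 h (SD, n = 4 each). The libraries also differed in skeletal muscle transcripts, whose 12 markers summed to 8970, 879.8, 3695 and 5947 normalized counts in controls B2, B3, B4 and B5 and to 22210, 3594, 11290 and 6713 in treated mice B12, B13, B15 and B17. None of the 12 muscle markers passed the threshold at 6 h, although all had a log2 fold change above 0, with a median of 1.04. Of 10 brown adipocyte markers, 2 were higher and 2 lower, and their sum was 193500 to 218700 in the controls and 238200 to 275600 at 6 h. Most of the sum's rise lay in Ucp1, whose mean went from 65835 to 126292 normalized counts, and 6 of the 10 markers had a log2 fold change below 0, with a median of -0.07. No marker of macrophages (11 tested), of pericytes and smooth muscle (8), of fibroblasts and preadipocytes (10), of nerve (5) or of red blood cells (5) passed, and 1 of 12 lymphocyte markers was expressed enough to be tested. In bulk tissue, fewer cells of a type and less RNA per cell cannot be told apart.

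Outside the clock, the gene with the largest rise was Slco4a1 (chromosome 2, from 180456245 to 180474867 in GRCm38), which encodes an organic anion transporter that carries TH. It had 2.85, 1.15, 3.15 and 3.34 normalized counts in the 4 controls and 283, 286, 365 and 349 in the 4 treated mice. Slco4a1 was thus close to the detection limit in every control and well expressed in every treated mouse, a 115-fold difference (log2 fold change 6.84, standard error (SE) 0.38, adjusted p = 8.84e-11). Loxl1, a lysyl oxidase that crosslinks elastin, rose from 57.9, 61.9, 41.7 and 32.3 normalized counts to 1046, 770, 944 and 1133. That is a 20.1-fold rise in which the lowest treated mouse stood far above the highest control (log2 fold change 4.33, SE 0.23, adjusted p = 6.74e-11). Hr, the hairless corepressor and a known TH target, rose by 3.27 on the log2 scale (SE 0.31, adjusted p = 2.5e-07), from 12.9 ± 3.79 to 124 ± 31.3 normalized counts (SD, n = 4 each).

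Mylk4, a member of the myosin light chain kinase family, had 2.85, 2.29, 0 and 3.34 normalized counts in the controls and 435, 93.2, 210 and 93.1 in the treated mice. Its highest treated mouse, B12, is also the mouse with the largest sum of muscle markers, followed for both by B15. All controls were at or under the floor of 3 counts, and the 6 h mean stood at least 69.3-fold above that floor taken per library. The fitted log2 fold change, which for so few control counts depends on the prior count, was 6.64 (SE 1.24, adjusted p = 0.000615), and it was 5.99 without B12 and 5.37 when the muscle marker sum was added to the model as a covariate, an alternative chosen after seeing the data.

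Among the 10 largest rises of the ranked genes were also genes of noncoding or uncertain kind. B430219N15Rik, annotated as antisense to Ginm1 on chromosome 10, rose from 67.5 ± 9.6 to 2218 ± 557 normalized counts (SD, n = 4 each; log2 fold change 5.04, SE 0.24, adjusted p = 2.57e-11). Whether the reads were counted by strand is not given, so its reads and those of Ginm1 may be mixed where the genes overlap. Among the other genes given with values, Fbxl2, B3galt2, Desi1, Stat5a, Esrra, Agpat1, Plin4, Slc25a25, Angptl2, Manf, Mif4gd, Gapdh and Dbp also overlap a protein-coding gene on the opposite strand. The long intergenic RNA Gm32468 and the pseudogene 9030619P08Rik were at or under the floor of 3 counts in every control, and their 6 h means stood at least 23.5-fold and at least 15.3-fold above that floor taken per library. Reads of 9030619P08Rik may be shared with related genes. Apln, the secreted peptide apelin, rose by 3.93 on the log2 scale, Fbxl2, an F-box subunit of ubiquitin ligases, by 3.19, and Fndc5, the precursor of irisin, by 3.09, the last from a mean of 2.98 to one of 25.4 normalized counts.

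Among the genes ranked in this way, the largest fall was that of B3galt2, a galactosyltransferase. It had 2656, 3867, 2443 and 2636 normalized counts in the controls and 371, 335, 212 and 153 in the treated mice, so that every treated mouse lay far below every control. The fall was 10.9-fold (log2 fold change -3.44, SE 0.32, adjusted p = 2.1e-07). Nabp1, which encodes a protein that binds single-stranded DNA, had 13315, 13117, 6691 and 10319 normalized counts in the controls against 4351, 2111, 2377 and 1386 at 6 h (log2 fold change -2.09, SE 0.27, adjusted p = 1.14e-05).

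The other large falls included several genes of signalling. Gem, a small GTPase that restrains calcium channels, had a log2 fold change of -3.08, the receptor tyrosine kinase Kit -2.61, the death-associated kinase Dapk1 -2.51, and Trarg1, a regulator of the trafficking of the glucose transporter GLUT4, -2.45. Kit was also 1 of the 7 tested markers of mast cells and neutrophils and the only one past the threshold; the sum of the markers was 343.3 to 582.8 normalized counts in the controls and 116.2 to 211.5 at 6 h. Most of that drop lay in Kit itself, with means of 329 and 54.0 normalized counts, and 3 of the 7 markers had a log2 fold change above 0, with a median of -0.02 over the 7. Cd274, the checkpoint ligand PD-L1, fell from 1754 ± 582 to 406 ± 53.1 normalized counts (SD, n = 4 each). Hcar1, the lactate receptor that restrains lipolysis in adipocytes, had a log2 fold change of -2.05, and Btg2, an antiproliferative early response gene, -2.04. Prune2 had 515 normalized counts in control B5 against 129 to 190 in the other controls and 34.3 to 80.7 at 6 h, and its log2 fold change of -2.40 was -1.75 without B5.

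**Figure D2:**
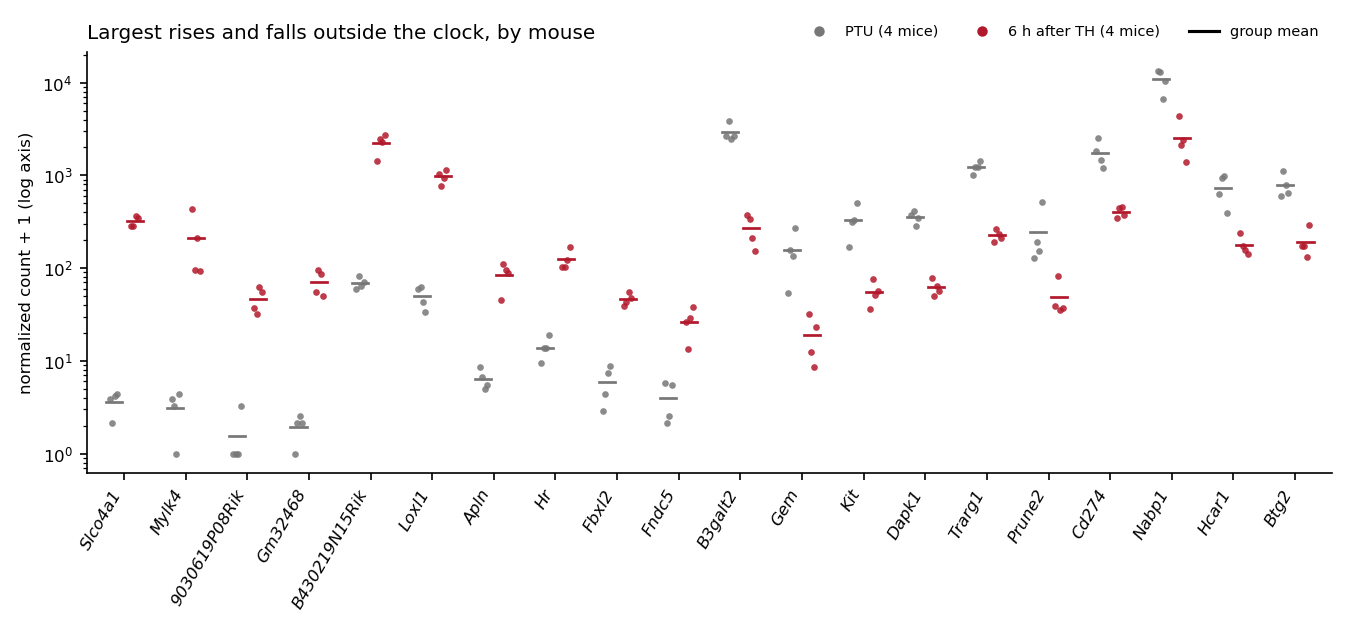
Normalized count plus 1 (log axis, y) of the 10 genes with the largest rises and the 10 with the largest falls (x) is shown. The genes were ranked among called genes outside the clock with a mean above 50 and no overlap between groups. Each point is 1 mouse, with PTU in grey, 6 h after TH in red and a line at the group mean. Control and treated mice do not overlap for any of the 20 genes, which the choice of the genes required.

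Shares of called genes in the lists that follow are to be read against the 12.1% higher and 10.9% lower of all tested genes. For TH signalling itself, 16 genes of TH transport, deiodination, receptors and their cofactors were tested, of which 6 were higher (37.5%) and 3 lower (18.8%), with 1 lower without control B4. Dio2 had 377, 1435, 1095 and 2961 normalized counts in the controls and 8238, 4393, 6502 and 6760 at 6 h. The controls were scattered, but all lay below the treated mice (log2 fold change 2.14, SE 0.54, adjusted p = 0.00648), and without control B5 the log2 fold change was 2.74. The receptor partner Rxrb rose by 0.95 on the log2 scale. Thra, which codes for the receptor TRα, had a log2 fold change of -0.40 (SE 0.12, adjusted p = 0.0202), a call lost without B4, B5 or B12, and Thrb one of -0.17 (SE 0.11, adjusted p = 0.300). Thra overlaps the clock gene Nr1d1 on the opposite strand, so reads from the overlap cannot be assigned to either without strand. The coactivator Ncoa1 was lower (log2 fold change -0.45).

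Of 14 tested genes listed as established TH targets, 10 were higher (71.4%) and 1 lower (7.14%), with a median log2 fold change of 1.04. This list was chosen with earlier results of these mice known and is no independent evidence of direction. Klf9, a Krüppel-like transcription factor, was among the most even: 873, 1024, 1070 and 922 normalized counts in the controls and 3646, 3226, 3347 and 3118 at 6 h (log2 fold change 1.78, SE 0.10, adjusted p = 1.11e-10). Bcl3, a nuclear regulator of NF-κB, rose by 2.58, Desi1, a desumoylating enzyme, by 1.33, Stat5a, a transcription factor downstream of growth hormone, by 1.15 and Trp53inp2, which takes part in autophagy, by 0.87 on the log2 scale. Me1, the cytosolic malic enzyme that supplies NADPH for lipogenesis, was the member called lower, from 6655 ± 1139 to 3580 ± 1158 normalized counts (SD, n = 4 each). Of 12 Krüppel-like factors, 4 were higher (33.3%) and 2 lower (16.7%): besides Klf9, Klf13 rose by 1.62 and Klf15 by 0.81, the latter a call lost without B5 or B15, whereas Klf11 had a log2 fold change of -1.37 and Klf16 one of -0.84. Without B15, 2 were higher.

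Of 21 thermogenesis genes, 7 were higher (33.3%) and 2 lower (9.52%). Ucp1 had 67142, 56416, 62343 and 77440 normalized counts in the controls and 123128, 119177, 143257 and 119606 at 6 h. All treated mice were above all controls, a 1.92-fold difference (log2 fold change 0.94, SE 0.21, adjusted p = 0.00255). Ppargc1a, the coactivator PGC-1α that drives mitochondrial and thermogenic programmes, had 326, 347, 612 and 1066 normalized counts in the controls and 3594, 2022, 1357 and 1579 at 6 h, a wide but separate spread (log2 fold change 1.86, SE 0.40, adjusted p = 0.00199). The estrogen-related receptors, orphan nuclear receptors that partner with PGC-1α, rose too, Esrrg by 1.43 (SE 0.13, adjusted p = 1.5e-07) and Esrra by 0.92 on the log2 scale. The members called lower, Ebf2 (log2 fold change -0.36) and Ppara (-0.65), lay close to the threshold: 1 or both calls were lost in every fit that left out 1 mouse. Of 29 nuclear receptors outside the clock, 6 were higher (20.7%), among them the estrogen receptor Esr1 (log2 fold change 1.60), and 3 lower (10.3%, near the background), among them the mineralocorticoid receptor Nr3c2 (-0.94). Without control B5, 1 was lower.

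Of 27 genes of adrenergic and cAMP signalling, 3 were higher (11.1%, near the background) and 5 lower (18.5%). Adrb3, the main adrenergic receptor of adipocytes, had 4136, 4121, 3923 and 3759 normalized counts in the controls and 1879, 834, 989 and 891 at 6 h. The controls were close together and all treated mice were below them, with B12 the highest of the treated (log2 fold change -1.79, SE 0.34, adjusted p = 0.000754). The phosphodiesterases Pde3a and Pde3b, which break down cAMP, had log2 fold changes of -1.09 and -0.77. Higher were the soluble adenylyl cyclase Adcy10 (1.88), the stimulatory G protein gene Gnas (0.41) and the phosphodiesterase Pde4a (0.48). The call of Pde4a was lost in 5 of the 8 fits that left out 1 mouse, and 2 to 5 members were called higher in those fits, 5 of them without control B4. Of 19 immediate early genes, which nerve and hormone stimuli switch on within minutes, none was higher and Btg2 and Egr3 were lower (10.5%), while 18 of the 19 had a log2 fold change below 0, with a median of -0.75. Egr3 had 62.6 to 95.1 normalized counts in the controls and 3.83, 4.55, 2.51 and 29.0 at 6 h, and its log2 fold change of -2.85 was -4.36 without B17. The number called lower was 2 to 7 when 1 mouse was left out, 7 of them without B17, and it was 7 with no filter on low counts and 4 with a mean above 50 or with DESeq2.

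Of 18 genes of de novo lipogenesis, 6 were lower (33.3%) and none higher, with a median log2 fold change of -0.40. Acly, the ATP citrate lyase that supplies acetyl-CoA for fatty acids, had 22733, 19657, 22002 and 29763 normalized counts in the controls and 5947, 13091, 6465 and 7977 at 6 h. The treated mice were all below the controls, B13 least so (log2 fold change -1.49, SE 0.29, adjusted p = 0.000933). The elongase Elovl5 had a log2 fold change of -0.63. The number called lower was 3 without B5, B12, B15 or B17, and 1 member was called higher without B5 or B12. Of 26 genes of cholesterol synthesis, 6 were lower (23.1%) and 2 higher (7.69%). The synthase Hmgcs1 fell from 2063 ± 456 to 825 ± 110 normalized counts (SD, n = 4 each) and Insig1, which holds back the sterol sensor, had a log2 fold change of -1.22, whereas the desaturase Sc5d rose by 1.05 on the log2 scale. The number called lower was between 2 and 8 with 1 mouse left out, 2 of them without B17 and 3 without B5, B12 or B15, and the number called higher between 1 and 4. With all 30 mice of the experiment in the fit, 3 were lower.

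Triglyceride synthesis and lipid droplets gave 8 higher (32%) and 4 lower (16%) of 25. Lpin3, a phosphatidate phosphatase, went from 0.948, 0, 1.57 and 7.79 normalized counts in the controls to 14.4, 29.6, 36.8 and 54.7 at 6 h. It stayed a low transcript, with all treated mice above the controls (log2 fold change 3.73, SE 0.54, adjusted p = 4.17e-05), and its log2 fold change was 5.02 without B5. Dgat2, which makes triglyceride from diglyceride, rose by 0.82 and Agpat1, an acyltransferase earlier in the path, by 0.73 on the log2 scale. Gpat3, an acyltransferase of the first step, had a log2 fold change of -1.90 (SE 0.24, adjusted p = 8.37e-06), and the droplet coats Plin4 and Plin2 had -1.02 and -0.62. Without B5, 2 members were lower, and the call of Plin2 was among those lost (adjusted p = 0.0508).

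Of 10 lipolysis genes, 2 were higher, the triglyceride lipase Pnpla2 (log2 fold change 0.66, SE 0.18, adjusted p = 0.0117) and the monoglyceride lipase Abhd6 (0.55), and 1 was lower, the lipase coactivator Abhd5 (-0.59), a call lost in 6 of the 8 fits that left out 1 mouse. Of 18 genes of fatty acid uptake, 2 were higher (11.1%, near the background) and 4 lower (22.2%), and 1 to 3 were higher and 1 to 3 lower with 1 mouse left out, with 2 lower in the fit of all 30 mice. Of 23 genes of mitochondrial beta-oxidation, 1 was higher, Acads (0.48, lost in 3 of those fits), and 1 lower, the thioesterase Acot2 (-0.81); 0 to 2 were higher with 1 mouse left out. Both shares of the beta-oxidation list, 4.35% in each direction, lay under those of all tested genes. Of 10 acyl-CoA thioesterases, 4 were higher (40%) and 1 lower (10%), with 2 higher without B2, B3 or B17, and of 29 peroxisomal genes 7 were higher (24.1%) and 3 lower (10.3%), led by the transporter Abcd3, which rose by 0.90 on the log2 scale (SE 0.09, adjusted p = 7.89e-07).

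Of 24 genes of glucose uptake and glycolysis, 9 were higher (37.5%) and none lower, with a median log2 fold change of 0.42. Pfkfb1, the bifunctional enzyme that sets fructose 2,6-bisphosphate, had 268, 335, 357 and 281 normalized counts in the controls and 929, 921, 1012 and 1065 at 6 h. The groups were far apart (log2 fold change 1.66, SE 0.16, adjusted p = 2.5e-07), although Pfkfb1 overlaps Apex2 on the opposite strand. Slc2a4, the insulin-regulated transporter GLUT4, rose from 1831 ± 272 to 2923 ± 422 normalized counts (SD, n = 4 each). Gapdh rose by 1.26 on the log2 scale, but had only 59.8 ± 21.4 normalized counts in the controls (SD, n = 4). Its reads may be shared with near-identical pseudogenes, which was not tested, so the value is uncertain. Of 20 glycogen genes, 1 was higher (5%), a call lost in 5 of the 8 fits that left out 1 mouse, and 4 were lower (20%), among them Ppp1r3c, which targets a phosphatase to glycogen (log2 fold change -1.48, SE 0.19, adjusted p = 9.25e-06). Of 32 genes of pyruvate entry and the TCA cycle, 5 were higher (15.6%) and 2 lower (6.25%), with the pyruvate dehydrogenase phosphatase Pdp2 rising by 0.83 and its paralog Pdp1 having a log2 fold change of -0.88, and 1 lower without B5, B15 or B17. Of 7 genes of glycerol metabolism 1 was higher (14.3%), and of 20 of branched-chain amino acid catabolism 2 were (10%), none being lower in either list.

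Of 35 genes of insulin, PI3K and mTOR signalling, 11 were lower (31.4%, against 10.9% of all tested genes) and 5 higher (14.3%, against 12.1%). The kinase Akt1 rose by 1.28 (SE 0.17, adjusted p = 1.19e-05) and the transcription factor Foxo1 by 1.35 on the log2 scale. The docking protein Irs1 had 416, 697, 1084 and 889 normalized counts in the controls and 411, 288, 232 and 261 at 6 h. Control B2 was nearly level with treated mouse B12, and the other mice were well apart (log2 fold change -1.37, SE 0.26, adjusted p = 0.000779). The catalytic subunit Pik3cb and Sesn3, a sestrin, had log2 fold changes of -1.10 each. With 1 mouse left out the number called lower was 6 to 9, the fewest without B15 and 7 without B2, B3, B5 or B13. Of 15 genes of growth hormone, STAT5 and IGF signalling, 3 were higher (20%), Stat5a, Stat5b (0.76) and Igfbp3 (1.29), and the receptor Ghr was lower (-0.61); the call of Igfbp3 was lost without B12.

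Mitochondrial genes encoded in the nucleus were counted by class, and differences between classes were not tested. Of 41 mitochondrial carriers, 17 were higher (41.5%) and 1 lower. They included the pyrimidine nucleotide carrier Slc25a33 (log2 fold change 1.80, SE 0.15, adjusted p = 3.93e-08), Ucp3 (1.20), the paralog of Ucp1, and the NAD carrier Slc25a51 (0.80), while the ATP-Mg/phosphate carrier Slc25a25 was lower (-1.96). Of 22 genes of mitochondrial biogenesis and genome maintenance, 8 were higher (36.4%) and none lower, with Twnk, the helicase of the mitochondrial genome, rising by 1.16, its RNA polymerase Polrmt by 0.75 and its DNA polymerase Polg by 0.58 on the log2 scale. Twnk and Polg overlap other genes on the opposite strand. Of 76 mitochondrial ribosomal proteins, 20 were higher (26.3%) and 3 lower (3.95%), and the median log2 fold change was 0.21. Mrps2, with the smallest p of the list, had 1496 ± 115 and 2343 ± 103 normalized counts (SD, n = 4 each; log2 fold change 0.65, SE 0.08, adjusted p = 1.21e-05). Without B15, 12 were higher, and without B2, 13, and 1 was lower without B3 or B17, against 2 to 4 without another mouse.

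Of 81 nuclear subunits of the respiratory chain, 10 were higher (12.3%, against 12.1% of all tested genes) and none lower (against 10.9%), with a median log2 fold change of 0.04. The number higher was 2 without B2 and 3 without B3, B15 or B17. It was 4 with no filter on low counts or with the muscle covariate, and it also moved with only the 8 mice compared. The number lower was 0 or 1 with 1 mouse left out and 0 to 2 in the other fits. Of 8 tested genes of the mitochondrial genome, 1 was lower and the median was -0.35. The number lower moved between 0 and 3 in the 8 fits that left out 1 mouse, with a change in each of them. The fit scaled on nuclear genes alone did not test these genes. Of 43 ribosome biogenesis genes 12 were higher (27.9%) and none lower, led by Rcl1, a processing factor of the small ribosomal subunit, which rose from 120 ± 12.1 to 474 ± 47.5 normalized counts (SD, n = 4 each; log2 fold change 1.98, SE 0.12, adjusted p = 3.48e-10), and by the nucleolar factors Nop2 (0.96) and Nolc1 (0.63). Cytosolic ribosomal proteins gave 9 higher (12%, at the background) and 1 lower (1.33%) of 75. When 1 mouse was left out, 2 to 8 were higher, the fewest without B3 or B17. The number higher was 4 with no filter on low counts and 5 with the muscle covariate. Reads of these genes may be shared with pseudogenes, which was not tested. Of 37 proteasome subunits, 5 were higher (13.5%, near the background) and 2 lower (5.41%), with 3 higher without B3.

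Secreted factors were among the lists with the larger share of rises: 9 of 19 were higher (47.4%) and 1 lower. Besides Apln, these included Cxcl14, a chemokine that brown adipocytes release, with 10.4, 20.6, 32.3 and 20.0 normalized counts in the controls and 111, 98.9, 127 and 138 at 6 h. Every treated mouse was above every control (log2 fold change 2.48, SE 0.23, adjusted p = 1.89e-07). Angptl2, an angiopoietin-like factor, rose by 1.85 on the log2 scale. The retinol carrier Rbp4 was lower (-0.68), a call lost in 5 of the 8 fits that left out 1 mouse. Of 12 endothelial markers, 1 was higher, Tie1 (0.46), which was lost in 6 of those fits, and 1 lower, the tight junction gene Cldn5, with 170 ± 25.1 and 56.8 ± 10.6 normalized counts (SD, n = 4 each; log2 fold change -1.57, SE 0.27, adjusted p = 0.000283).

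Calcium and creatine cycling, a route of heat production beside Ucp1, gave 4 higher (22.2%) and none lower of 18. These included the calcium pump SERCA2 gene Atp2a2 (log2 fold change 0.81, SE 0.10, adjusted p = 6.24e-06), the calcium release channel Itpr2 (0.90) and the phosphatase Alpl (1.34). The median of the list was 0.68, and it holds genes that skeletal muscle also expresses, with the muscle marker sums as given above. With the muscle covariate the log2 fold changes of Atp2a2, Itpr2 and Alpl stayed between 0.79 and 1.36. Of 20 chaperones of the endoplasmic reticulum, 4 were higher (20%), among them Manf (1.24) and Calr (0.53), and 3 lower (15%), among them Edem1 (-0.55) and Xbp1 (-0.66), with 1 lower without B4. For the remaining lists, read against 12.1% higher and 10.9% lower of all tested genes, higher and lower, respectively, were 0 and 2 of 14 glucocorticoid-responsive genes, 1 and 2 of 11 genes of the integrated stress response, 2 and 0 of 21 cytosolic heat shock genes, 3 and 2 of 24 genes of oxidative stress defence, 2 and 3 of 33 autophagy genes, 2 and 2 of 16 cell cycle genes, 2 and 3 of 18 interferon-stimulated genes, and 0 and 1 of 9 carbonic anhydrases. Many of these counts moved by 1 to 3 genes with 1 mouse left out: the glucocorticoid-responsive genes called lower were 0 to 2, the heat shock genes called higher 0 or 1 in all 8 such fits, and the autophagy genes called higher 1 to 5. The 9 carbonic anhydrases had a median log2 fold change of -0.01, although their summed level was 100400 to 191500 normalized counts in the controls and 71720 to 89210 at 6 h. Most of that sum was Car3, named here after its values were seen, which did not pass (log2 fold change -0.75, SE 0.29, adjusted p = 0.0667).

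**Figure D3:**
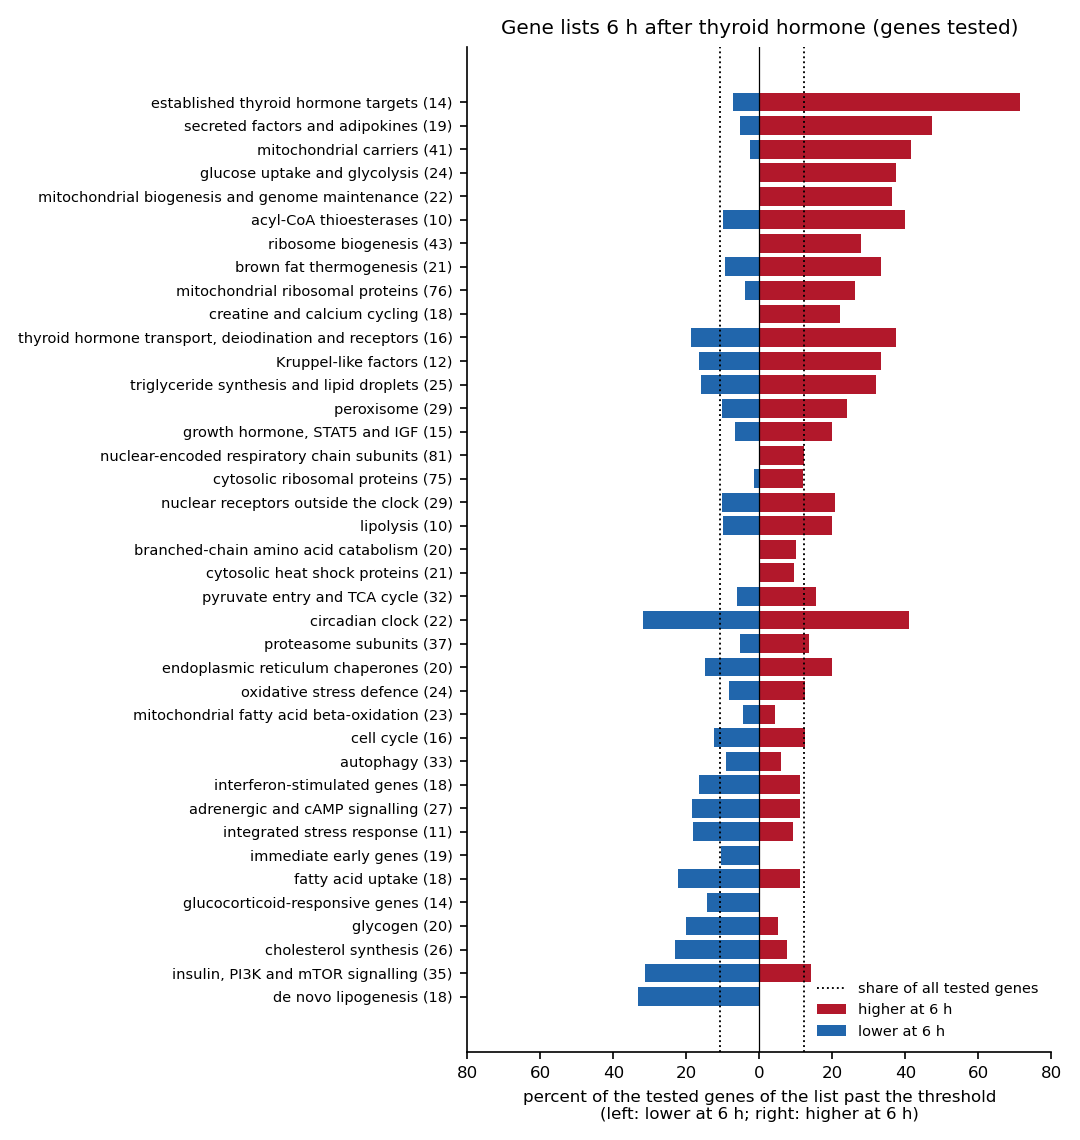
For each gene list with at least 10 tested genes (number in parentheses, y), the percent of tested members past the threshold 6 h after TH (x), lower to the left in blue and higher to the right in red; dotted lines give the shares of all tested genes, 10.9% and 12.1%. Established TH targets, secreted factors and mitochondrial carriers lie farthest to the right and de novo lipogenesis farthest to the left; the clock has long bars on both sides.

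All 22 clock genes were tested, and 16 were past the threshold (72.7%), where 23% of all tested genes were. Of these, 9 were higher and 7 lower, and the median absolute log2 fold change was 1.37, against 0.28 over all tested genes. With 1 mouse left out, 8 or 9 were higher and 6 or 7 lower. The activators Arntl, Clock and Npas2 were lower, and Dbp, Tef, Hlf, Per2, Per3, Nr1d1, Nr1d2, Ciart and Bhlhe40 were higher.

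Sequences before RefSeq starts of 4 clock genes and of Dio2 are shown because they carry the elements through which the clock and cAMP act. They are the 250 bases before the start (GRCm38.p6), written from 5′ to 3′ along the gene. The E-box CACGTG, the D-box TTATGTAA or the cAMP response element TGACGTCA is in capitals. For Tef, the first of 2 windows is shown, both with an E-box. It lies within the gene as GENCODE annotates it, from 81802421 on.
Ciart, E-box, chr3:95882229-95882478, minus strand: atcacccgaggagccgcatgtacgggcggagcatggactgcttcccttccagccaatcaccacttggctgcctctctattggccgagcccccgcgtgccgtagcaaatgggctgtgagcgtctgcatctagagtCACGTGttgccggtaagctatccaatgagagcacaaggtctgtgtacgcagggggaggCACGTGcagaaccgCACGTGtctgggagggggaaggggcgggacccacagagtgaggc
Tef, E-box, chr15:81802423-81802672, plus strand: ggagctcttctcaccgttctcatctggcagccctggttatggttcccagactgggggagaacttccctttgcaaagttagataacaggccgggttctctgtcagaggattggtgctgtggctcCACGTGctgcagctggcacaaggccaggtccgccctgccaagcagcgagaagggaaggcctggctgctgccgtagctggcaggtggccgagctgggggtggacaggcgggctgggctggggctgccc
Cry1, E-box, chr10:85185055-85185304, minus strand: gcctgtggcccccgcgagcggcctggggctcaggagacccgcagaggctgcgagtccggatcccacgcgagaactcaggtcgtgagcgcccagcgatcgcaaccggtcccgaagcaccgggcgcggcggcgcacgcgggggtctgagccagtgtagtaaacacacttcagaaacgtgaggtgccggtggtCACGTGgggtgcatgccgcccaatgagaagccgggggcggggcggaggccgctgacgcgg
Per3, D-box, chr4:151044666-151044915, minus strand: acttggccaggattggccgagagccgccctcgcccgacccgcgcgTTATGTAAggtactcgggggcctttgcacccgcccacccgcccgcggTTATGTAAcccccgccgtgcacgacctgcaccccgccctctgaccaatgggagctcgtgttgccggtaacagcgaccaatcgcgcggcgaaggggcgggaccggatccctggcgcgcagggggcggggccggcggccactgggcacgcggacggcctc
Dio2, cAMP response element, chr12:90739039-90739288, minus strand: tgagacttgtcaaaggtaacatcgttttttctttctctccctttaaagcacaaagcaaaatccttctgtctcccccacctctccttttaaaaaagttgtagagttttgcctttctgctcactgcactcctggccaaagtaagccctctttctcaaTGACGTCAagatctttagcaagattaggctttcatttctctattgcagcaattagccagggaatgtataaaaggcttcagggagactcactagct
Both strands were searched for each element, and the promoter table held 17 of the 22 clock genes. An E-box was found in 5 of the 17, Ciart, Tef, Cry1, Per1 and Bhlhe41, and in 6.02% of the 32851 promoters of the table. Ciart held 3 copies, the nearest beginning 44 bases before the start. The D-box, the site of DBP, TEF, HLF and NFIL3, was found in 2 copies before Per3, with 158 and 205 bases to the start, in no other clock gene with an entry, and in 0.819% of all promoters. The cAMP response element stood before Dio2, Hlf, Btg2, Slc25a25 and Trp53inp2, among others, and in 1.55% of all promoters. The TH response element DR4 was searched in its strict form, 2 direct copies of AGGTCA with 4 bases between them. It was present in 5 of the 32851 promoters (0.0152%) and before none of the named genes that had an entry in the table. With so few matches, its absence there cannot show a lack of TH response elements. Looser forms and sites outside the window were not searched. Outside the clock, 92 of the named genes had an entry, with 130 promoters in all, and 14 of them held an E-box in 1 promoter each, among them B3galt2, Fbxl2, Insig1, Irs1, Klf11 and Thrb. A match is a description of the letters in this window, and the 5 clock genes with an E-box moved in both directions or did not pass, with Ciart and Tef higher, Cry1 lower, and Per1 and Bhlhe41 not past the threshold.

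Among the activators, Arntl had 182, 198, 85.8 and 209 normalized counts in the controls and 31.6, 11.4, 13.4 and 12.8 at 6 h. Control B4 was the lowest of its group, and treated mouse B12 the highest of its own, but the groups stayed apart, a 9.64-fold fall (log2 fold change -3.27, SE 0.51, adjusted p = 8.89e-05). Npas2 fell 20.6-fold, from 97.7, 121, 38.6 and 81.2 to 4.78, 3.41, 6.69 and 0.854 normalized counts (log2 fold change -4.36, SE 0.70, adjusted p = 0.000125). Clock itself fell less, from 816 ± 112 to 499 ± 82.3 normalized counts (SD, n = 4 each; log2 fold change -0.71, adjusted p = 0.00365).

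The PAR bZIP factors, direct outputs of the loop, were all higher. Dbp had 4.74, 12.6, 71.7 and 15.6 normalized counts in the controls and 287, 603, 654 and 765 at 6 h, with control B4 again apart from the others (log2 fold change 4.36, SE 0.59, adjusted p = 2.2e-05). Without B4, its log2 fold change was 5.74. Tef had 162, 175, 328 and 169 against 703, 1038, 1238 and 1353 normalized counts, with B4 the highest control (log2 fold change 2.37, SE 0.28, adjusted p = 4.49e-06). Hlf rose by 1.09 on the log2 scale. Nfil3, a repressor that competes with them for the D-box, went the other way, from 417 ± 140 to 63.2 ± 32.8 normalized counts (SD, n = 4 each; log2 fold change -2.70, SE 0.48, adjusted p = 0.000413).

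The repressors of the loop did not move as one. Per2 had 25.6, 9.17, 44.9 and 30.0 normalized counts in the controls and 145, 210, 273 and 279 at 6 h, all treated mice lying above the controls (log2 fold change 3.00, SE 0.42, adjusted p = 2.74e-05). Per3 rose by 1.76 (SE 0.33, adjusted p = 0.000676), with 146 normalized counts in control B4 and 52.3 to 61.6 in the other controls, and by 2.27 without B4. Per1, with 54.1 to 200 normalized counts in the controls and 119 to 216 at 6 h, did not pass (log2 fold change 0.39, SE 0.51, adjusted p = 0.615). Cry1 was lower, with 107, 128, 31.5 and 120 against 21.1, 21.6, 22.6 and 35.9 normalized counts, and only control B4 reached into the treated range (log2 fold change -1.90, SE 0.46, adjusted p = 0.00526). Cry2 differed by 0.05 on the log2 scale (adjusted p = 0.876). Ciart, a repressor that binds ARNTL, rose 20.9-fold from a low level, with 0.948 to 5.73 normalized counts in the controls and 26.8 to 82.9 at 6 h (log2 fold change 4.39, SE 0.56, adjusted p = 9.94e-06). Bhlhe40, which also represses at E-boxes, rose by 1.48, and Bhlhe41 had 0.39 (adjusted p = 0.449).

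Of the nuclear receptors that set Arntl transcription, the repressors Nr1d1 and Nr1d2 (REV-ERBα and REV-ERBβ) were higher and the activator Rora lower. Nr1d2 had 95.8, 65.3, 174 and 45.6 normalized counts in the controls and 344, 343, 334 and 357 at 6 h, wide among the controls and nearly level among the treated mice (log2 fold change 1.82, SE 0.28, adjusted p = 9.23e-05). Nr1d1 rose by 1.26 on the log2 scale (SE 0.36, adjusted p = 0.0148), a call at adjusted p = 0.0503 without control B5, and shares a stretch with Thra. Rora had a log2 fold change of -0.42 (adjusted p = 0.0251), a call lost in 4 of the 8 fits that left out 1 mouse. The casein kinases that act on PER stability did not pass, with log2 fold changes of 0.24 for Csnk1d and 0.27 for Csnk1e.

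**Figure D4:**
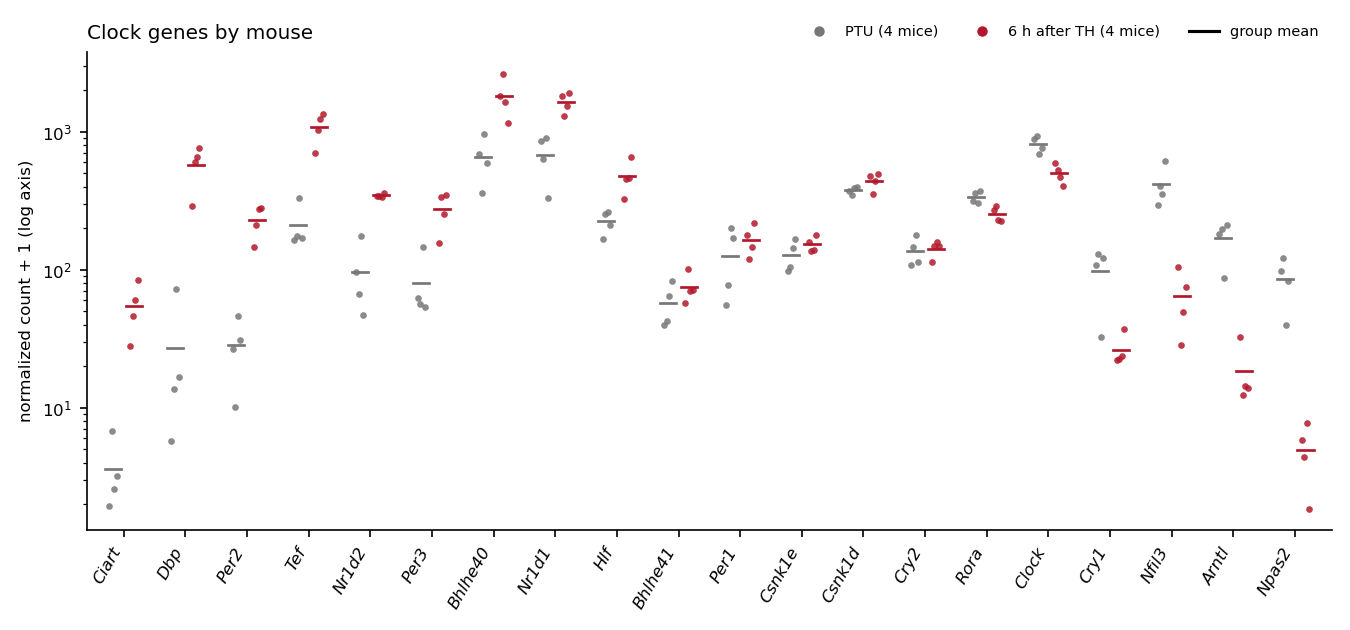
Normalized count plus 1 (log axis, y) of 20 of the clock genes (x, ordered by log2 fold change), with 1 point per mouse, PTU in grey and 6 h after TH in red, and a line at the group mean. Ciart and Dbp at the left and Arntl and Npas2 at the right show the widest gaps between the groups.

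Against the same controls, 4 clock genes were higher and 3 lower at 3 h (7 of 22, where 9.19% of all tested genes were called), 11 higher and 4 lower at 12 h (25.7%), and 6 higher and 2 lower at 24 h (32.7%). All these comparisons share the 4 controls. Tested directly against 3 h, 4 clock genes differed at 6 h, where 2.80% of all tested genes did: Npas2 (log2 difference -3.60, adjusted p = 0.0100), Arntl (-2.47, adjusted p = 0.0127), Ciart (2.68, adjusted p = 0.00384) and Per2 (1.46, adjusted p = 0.0345). The skeletal muscle sum also differed between these groups without overlap, as given further on, and can hardly be told apart from time. With the sum as a covariate none of the 4 passed. The log2 differences were then -3.96, -2.82, 2.36 and 1.29, with adjusted p values of 0.0844 to 0.273. Against 12 h, again 4 differed, where 2.95% of all tested genes did. Among them, Hlf was lower at 6 h by 1.26 (adjusted p = 0.00952) and Per2 by 1.34 (adjusted p = 0.0394), whereas Nr1d1 was higher by 1.59 (adjusted p = 0.0252).

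**Figure D5:**
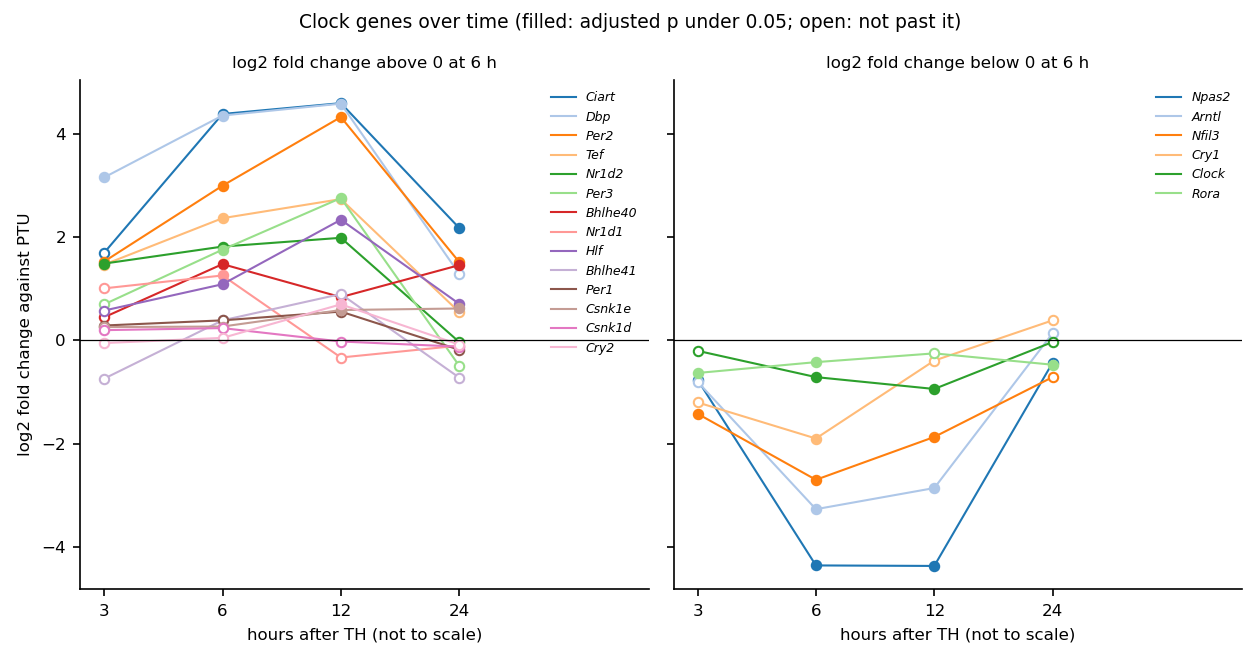
Log2 fold change against PTU (y) of 20 of the clock genes 3, 6, 12 and 24 h after TH (x, not to scale), with 14 genes above 0 at 6 h on the left and 6 below 0 on the right; filled points have an adjusted p under 0.05 and open points do not. Ciart, Dbp and Per2 stand highest and Npas2 and Arntl lowest at 6 and 12 h.

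Outside the clock, the step from 3 h to 6 h was also tested across all genes. At 6 h, 225 genes were higher than at 3 h (1.73% of those tested) and 139 lower (1.07%). With 1 mouse left out, 59 to 288 were higher and 44 to 128 lower. Esrrg had 367 normalized counts on average at 3 h and 908 at 6 h (log2 difference 1.31, adjusted p = 2.26e-05) and had not passed against the controls at 3 h (log2 fold change 0.12, adjusted p = 0.611). Ank2, which anchors membrane proteins to the cytoskeleton, was higher by 1.13 (adjusted p = 3.7e-05), the phospholipase Pla2g12a by 0.76 (adjusted p = 0.000712) and the DNA repair nuclease Apex2 by 0.97 (adjusted p = 0.000712) on the log2 scale. Lower at 6 h were the podosome scaffold Sh3pxd2a (log2 difference -1.56), Dhrs3, which turns retinal into retinol (-0.97), Nol4l (-0.97) and Mif4gd (-0.65), with adjusted p values of 0.00111 to 0.00192. The fall of Nol4l against the controls was lost in 5 of the 8 fits that left out 1 mouse. Skeletal muscle markers summed to 46.92 to 3312 normalized counts at 3 h, below 3594 to 22210 at 6 h. With that sum as a covariate, 9 genes were higher and 2 lower, and all 11 were among the genes called without it. The sums of the groups did not overlap, so muscle content and hours after TH can hardly be told apart here. A lost call decides nothing between them. Esrrg (log2 difference 1.43, adjusted p = 0.00044), Ank2 (1.14, adjusted p = 0.00298) and Pla2g12a (0.84, adjusted p = 0.00791) were among the 11, whereas Apex2, Nol4l, Dhrs3, Sh3pxd2a and Mif4gd had adjusted p values of 0.0514 to 0.0844, with log2 differences of 0.86, -0.86, -0.85, -1.31 and -0.45. Mylk4 was higher at 6 h than at 3 h by 4.85 without the covariate (adjusted p = 0.0120) and by 1.59 with it (adjusted p = 0.311).

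No gene was past the threshold in a test that required 6 h to lie beyond the controls, 3 h and 12 h alike, by edgeR or by DESeq2. Before adjustment, 197 genes had p under 0.05 in edgeR, 113 higher and 84 lower, and 170 in DESeq2, and the smallest p was 0.000281. Of the genes with the smallest p, Heatr3, which helps to import ribosomal proteins, was above the controls by 0.54, above 3 h by 0.46 and above 12 h by 0.41 on the log2 scale. Irf2bp2, a transcriptional corepressor, was below them by 1.48, 0.53 and 0.68. At 12 h the muscle markers summed to 49.16 to 4254 normalized counts, against 3594 to 22210 at 6 h.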

How the data were processed

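Total RNA of BAT was extracted with Trizol, and libraries were made with the Lexogen SENSE total RNA kit and sequenced on a NextSeq 500. Per the labels, the authors aligned reads to GRCm38 (mm10) with Bowtie (Bowtie2 2.3.2.2 in the submitters' processing notes), removed alignments of quality below 10 and counted reads per gene with htseqcount. The deposited values are raw counts. The annotation and the strand setting are not given in the sources used here. Columns of the table were matched to mice by their labels, and the other tables of the series were not used here.

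Genes with a mean normalized count (TMM) above 10 over the 20 wild-type mice were tested with edgeR's quasi-likelihood test (edgeR 4.0.16, limma 3.58.1, R 4.3.3), on a model with 1 mean per group and the spread shared by all 20 mice. p-values were adjusted over all 13003 tested genes by Benjamini and Hochberg, and genes with an adjusted p under 0.05 were called, with no minimum fold change. Standard errors were derived from the log2 fold change and its F statistic. For a change beyond the controls, 3 h and 12 h, the largest of the 3 p-values was taken where all 3 differences had 1 sign. Normalized counts are counts per library scaled by TMM to the mean library size, and compare a gene between mice, not genes with each other. Scripts were tested on simulated data. Alternatives were DESeq2 1.42.0, other scalings and filters, fits on other sets of mice and fits with 1 mouse left out. Coordinates and biotypes came from GENCODE vM21 (GRCm38), matched by symbol for 55327 genes. The 14 unmatched symbols were dates made by a spreadsheet.

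Outside the clock, the genes given with values were the 10 largest rises and 10 largest falls among called genes with a mean above 50 and no overlap between groups, up to 3 members of each list per direction by smallest p, 10 genes chosen for their role, and the 5 with the smallest p per direction of each comparison with other times. The results of 3 of these genes are not reported here. The members and lists were chosen with earlier results of these data known. Nothing says that the mice of a group came from separate litters or days, so the p-values measure the spread between these mice. Pairs of replicates differed by more than sampling noise in all 12 pairs compared, with a chi-square per degree of freedom of at least 10.83.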

Additional observations from a re-analysis of the deposited data

Results flagged for a closer look

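In groups of 4 mice, a mouse was noted where the distance to its closest neighbour, as a ratio to the whole range of the 4, was above Dixon's 95% critical value. This held for 21 of the 266 gene and group combinations searched, and chance gives about 1 in 20, or 13.3. Control B4 stood apart for the clock genes Dbp (ratio 0.838, 71.7 normalized counts against 4.74 to 15.6), Tef (0.921, 328 against 162 to 175) and Per3 (0.900, 146 against 52.3 to 61.6), and also for Polg (0.924, 148 against 110 to 113). Among the other controls, B5 was high for Prune2 (0.841), Sc5d (0.838) and 9030619P08Rik (1.0, 2.22 against 0), B3 was high for B3galt2 (0.850) and Edem1 (0.966), and B2 was low for Plin4 (0.834).

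At 6 h, B12 was high for Arntl (ratio 0.901, 31.6 normalized counts against 11.4 to 13.4), Adrb3 (0.852) and Rbp4 (0.896). B17 was high for Cry1 (0.897, 35.9 against 21.1 to 22.6) and Egr3 (0.923) and low for Hmgcs1 (0.837). B13 was high for Prune2 (0.914) and low for Gnas (0.838) and Mrps2 (0.876). B15 was high for Ucp1 (0.836, 143257 against 119177 to 123128) and Esrrg (0.841). What set these mice apart was not tested.

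The response at 6 h differed from that at 3 h, by edgeR's test of the difference, for 32 of the genes given with values. In the clock these were Arntl (log2 difference 6 h minus 3 h -2.47), Npas2 (-3.60), Per2 (1.46) and Ciart (2.68). Of the largest rises they were Slco4a1 (1.17), Mylk4 (4.85), 9030619P08Rik (3.32), Gm32468 (1.61), B430219N15Rik (1.25), Loxl1 (0.80) and Apln (1.26), and of the largest falls Dapk1 (-1.20), Trarg1 (-1.34) and Cd274 (-1.23). In each of these, the 6 h value lay farther from the controls than the 3 h value. The others were higher at 6 h for Esrrg (1.31), Ank2 (1.13), Apex2 (0.97), Angptl2 (0.90), Alpl (0.84), Pla2g12a (0.76), Slc25a33 (0.60), Itpr2 (0.52), Atp2a2 (0.51), Heatr3 (0.46), Abcd3 (0.44) and Abhd6 (0.42), and lower for Sh3pxd2a (-1.56), Nol4l (-0.97), Dhrs3 (-0.97), Pde3a (-0.74), Mif4gd (-0.65) and Irf2bp2 (-0.53). With the skeletal muscle sum as a covariate, the adjusted p stayed under 0.05 for Esrrg, Ank2, Pla2g12a, 9030619P08Rik and B430219N15Rik.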

How the results depend on the processing

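The 1579 higher and 1417 lower genes at 6 h became 1602 and 1401 with RLE size factors. They were 1580 and 1415 with scaling and tests on nuclear genes alone. With no filter on low counts they were 1486 and 1343, and with a mean above 50, 1404 and 1194. All 30 mice of the experiment gave 1665 and 1307, DESeq2 gave 1639 and 1494, and only the 8 mice compared gave 1673 and 1625. The skeletal muscle sum as a covariate, chosen after seeing the data, gave 1413 and 1245. Leaving out 1 mouse gave 1159 to 1648 higher and 989 to 1386 lower genes. No gene called in the main comparison changed sign in any of these. The 225 and 139 genes higher and lower at 6 h than at 3 h became 406 and 231 with no filter, 109 and 97 with all 30 mice and 9 and 2 with the muscle covariate. Leaving out 1 mouse gave 59 to 288 and 44 to 128: they were 59 and 44 without B15, 113 and 65 without B17, 137 and 80 without B12, 116 and 89 without B7, 102 and 71 without B8, and 140 and 63 without B9. A fit that leaves 3 mice in a group assumes that they vary as the other groups do. The test of 6 h beyond the controls, 3 h and 12 h called 0 genes in every fit, with 197 at an unadjusted p under 0.05 in edgeR and 170 in DESeq2. Of the 2123 refitted values of the 133 genes given with values, 2053 stayed on the same side of the threshold and 70 lost their call. Outside the fits that left out 1 mouse, calls were lost for Ebf2, Ppara, Abhd5, Rbp4, Tie1 and Nol4l. Of 1344 refitted list counts, 1114 stayed within 1.5 times the main count. No paired analysis was possible because the PTU and 6 h mice share no replicate number. With 4 mice a group and 44.8% to 55.7% of a library's counts on mitochondrial transcripts, genes of few counts were tested with little precision. A call that was missed does not show that a gene was unchanged.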
